A study of Mus musculus with 12 samples.

Results

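Bile acid synthesis and transport were followed through 10 genes in sorted mouse hepatocytes: Cyp7a1, Cyp7b1, Cyp8b1 and Cyp27a1 for sterol hydroxylation, Slc27a5 and Baat for conjugation, Slc10a1 and Slco1b2 for uptake, Abcb11 for export, and Nr0b2 for feedback repression. The genes were chosen by symbol for these roles, with earlier results of these data known. All 10 were found among the 37141 gene rows of the count table, and all 10 passed the filter on low counts that left 10780 genes for testing.

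The libraries come from a study of YAP and TAZ, the transcriptional coactivators held in check by the Hippo pathway, in liver regeneration after acute injury. Every mouse carried the alleles Yapflox/flox; Tazflox/flox, and each of 4 groups had 3 libraries. The Yap/Taz KO + CCl4 group had received an AAV8 vector with Cre recombinase and, 3 weeks later, carbon tetrachloride (CCl4) at 1 ml/kg in corn oil, 48 h before collection. The ctrl + CCl4 group had received the same CCl4 dose and no Cre, the Yap/Taz KO group AAV8-Cre alone, and the ctrl group neither agent. Cre was driven by the TBG promoter, which is active in hepatocytes, so that other liver cells kept both genes. The labels name no control vector and no vehicle injection, and give neither the age nor the sex of the mice. Each injury response therefore includes any effect of the oil and the injection, and each knockout effect any effect of the vector.

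Hepatocytes make bile acids from cholesterol, either by a classical route that starts with Cyp7a1 or by an alternative route through Cyp27a1 and Cyp7b1. The acids are joined to taurine or glycine, pumped into bile, and taken up again from portal blood, so that most of the pool circulates between gut and liver. Bile acids returning to the liver activate the nuclear receptor FXR (Nr1h4), which induces the repressor SHP (Nr0b2) and the exporter Abcb11, and SHP in turn lowers synthesis. CCl4 is turned into a toxic radical by cytochrome P450 enzymes in the hepatocytes around the central vein, which die while the remaining hepatocytes re-enter the cell cycle.

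On the GRCm38 build, the hydroxylase genes lie at chr4:6265612-6275633, minus strand (Cyp7a1), chr3:18071950-18243338, minus strand (Cyp7b1), chr9:121914356-121916305, minus strand (Cyp8b1) and chr1:74713574-74737892, plus strand (Cyp27a1). The conjugation genes lie at chr7:12988346-12998192, minus strand (Slc27a5) and chr4:49489422-49506557, minus strand (Baat). The transporter genes lie at chr12:80953183-80968705, minus strand (Slc10a1), chr6:141629518-141686646, plus strand (Slco1b2) and chr2:69238282-69342616, minus strand (Abcb11), and the repressor gene at chr4:133553376-133556536, plus strand (Nr0b2). All are annotated as protein-coding genes in GENCODE M21.

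The bases just upstream of their starts are shown for a hydroxylase, an uptake transporter and the exporter. RefSeq windows of 250 bases upstream of the annotated start (GRCm38.p6) were matched by symbol for 6 of the 10 genes (Cyp8b1, Cyp27a1, Slc10a1, Slco1b2, Abcb11 and Nr0b2), with a pair of starts for Slc10a1, and not for Cyp7a1, Cyp7b1, Slc27a5 and Baat. The windows printed are those of Cyp8b1 (chr9:121916306-121916555, minus strand), Slco1b2 (chr6:141629268-141629517, plus strand) and Abcb11 (chr2:69342617-69342866, minus strand), each written 5′ to 3′ on the gene's strand with motif matches in capitals.
Cyp8b1: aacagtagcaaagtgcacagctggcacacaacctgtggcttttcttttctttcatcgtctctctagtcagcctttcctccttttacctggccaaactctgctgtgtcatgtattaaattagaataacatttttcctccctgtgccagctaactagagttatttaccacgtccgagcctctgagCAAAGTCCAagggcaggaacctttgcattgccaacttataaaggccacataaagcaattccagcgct
Slco1b2: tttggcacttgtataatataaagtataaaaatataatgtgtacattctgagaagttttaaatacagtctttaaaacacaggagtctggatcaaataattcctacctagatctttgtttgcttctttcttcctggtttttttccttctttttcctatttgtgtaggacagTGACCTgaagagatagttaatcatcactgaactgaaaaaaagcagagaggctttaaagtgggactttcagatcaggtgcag
Abcb11: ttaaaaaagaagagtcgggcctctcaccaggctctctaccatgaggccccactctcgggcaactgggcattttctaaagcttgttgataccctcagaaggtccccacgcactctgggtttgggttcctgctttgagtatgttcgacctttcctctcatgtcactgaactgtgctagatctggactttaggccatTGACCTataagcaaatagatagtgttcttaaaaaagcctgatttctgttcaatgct
The motifs searched on both strands were AGGTCA, the repeat unit bound by many nuclear receptors, GGTCANTGA, the core of the inverted repeat bound by FXR, CAAGGTCA for NR5A2 and CAAAGTCCA for HNF4A. AGGTCA lies within CAAGGTCA and can overlap GGTCANTGA. Of all 32851 upstream windows of this length, 14.0% held AGGTCA, 0.731% GGTCANTGA, 1.33% CAAGGTCA and 0.384% CAAAGTCCA. The Cyp8b1 window held CAAAGTCCA, which starts 67 bases before the annotated start. The Slco1b2 window held the reverse complement of AGGTCA at 81 bases before the start. The Abcb11 window held the reverse complement of AGGTCA at 56 bases before the start, and 1 of the Slc10a1 windows held AGGTCA at 87 bases. The Cyp27a1 and Nr0b2 windows held none of the 4 motifs. Only exact matches were searched, so that a site differing from a motif by 1 base is not marked. In the Abcb11 window, ggccatTGA, which runs into the marked TGACCT, differs from GGTCANTGA by 1 base. These matches describe letters in the window and say nothing of binding.

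RNA was read as 3′ tags (QuantSeq), and levels are given as CPM, counts scaled by library size after TMM adjustment. Total counts per library ranged from 1617761 to 3028951, and 11281 to 14879 genes were detected per library. Hepatocyte markers (8 genes, including Alb and Apoa1) summed to 90630.2 to 111244 CPM in Yap/Taz KO + CCl4, 65511 to 86178 CPM in ctrl + CCl4, 136364 to 164340.1 CPM in Yap/Taz KO and 117811 to 156111 CPM in ctrl libraries, with none of the 8 at 0. Yap1 was 14.8, 14.2 and 14.4 CPM in Yap/Taz KO + CCl4, against 53.5, 50.6 and 65.7 CPM in ctrl + CCl4 libraries, and 22.2, 9.65 and 14.9 CPM in Yap/Taz KO, against 40.3, 61.9 and 71.8 CPM in ctrl libraries. Wwtr1, which encodes TAZ, was 25.3, 19.9 and 24.8 CPM in Yap/Taz KO + CCl4, against 33.7, 32.6 and 34.8 CPM in ctrl + CCl4 libraries, and 15.7, 10.1 and 18.3 CPM in Yap/Taz KO, against 57.6, 24.2 and 34.8 CPM in ctrl libraries. Neither gene overlapped between knockout and control libraries in either state, Yap1 at adjusted p = 0.0995 with injury and 0.102 without. Wwtr1 had no adjusted p under 0.05 in either state, as no gene of the table did in edgeR. Of all 10780 genes tested, 842 lay lower in knockout libraries without overlap with injury, and 530 without injury. A 3′ tag need not lie in the deleted part of the gene, so that these levels do not measure loss of the proteins. ctrl replicate 1 stood apart from the other ctrl libraries: its erythroid markers summed to 1583 CPM, against 19.6 and 154 CPM in the others, and its macrophage markers to 2426 CPM, against 441 and 574 CPM. Its sinusoidal endothelial (1616 CPM), stellate cell (1005 CPM) and monocyte and neutrophil (164 CPM) sums were also the highest among ctrl libraries. Yap/Taz KO replicate 1 had the highest macrophage (1004 CPM) and endothelial (840 CPM) sums of its group. Its stellate cell and monocyte and neutrophil sums were not the highest.

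After CCl4, 8 of the 10 genes fell in knockout hepatocytes and all 10 in control hepatocytes (edgeR quasi-likelihood test with Benjamini-Hochberg adjustment over 10780 genes, threshold 0.05). Over all genes tested, 8.35% fell and 9.42% rose in knockout hepatocytes, and 12% fell and 10.5% rose in control hepatocytes. With library totals in place of TMM, 8 of the 10 fell in knockout and 9 in control hepatocytes, while over all genes 1814 rose and 406 fell in knockout hepatocytes, where TMM gave 1016 and 900, and 1974 rose and 698 fell in control hepatocytes, where TMM gave 1137 and 1290. The median log2 fold change of the 10 genes was -1.70 in knockout hepatocytes, where the median of all genes was 0.03, and -2.36 in control hepatocytes, where the median of all genes was 0.03. Together the 10 genes held 0.117% to 0.231% of all counts in injured libraries, against 0.432% to 0.639% in uninjured libraries. For 8 genes the 3 Yap/Taz KO + CCl4 libraries lay below the 3 Yap/Taz KO libraries without overlap, where 18.1% of all genes did so. For 9 genes the 3 ctrl + CCl4 libraries lay below the 3 ctrl libraries, where 17.5% of all genes did so. In bulk RNA of sorted cells, fewer cells that express a gene and less of its RNA per cell cannot be told apart.

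**Figure D1:**
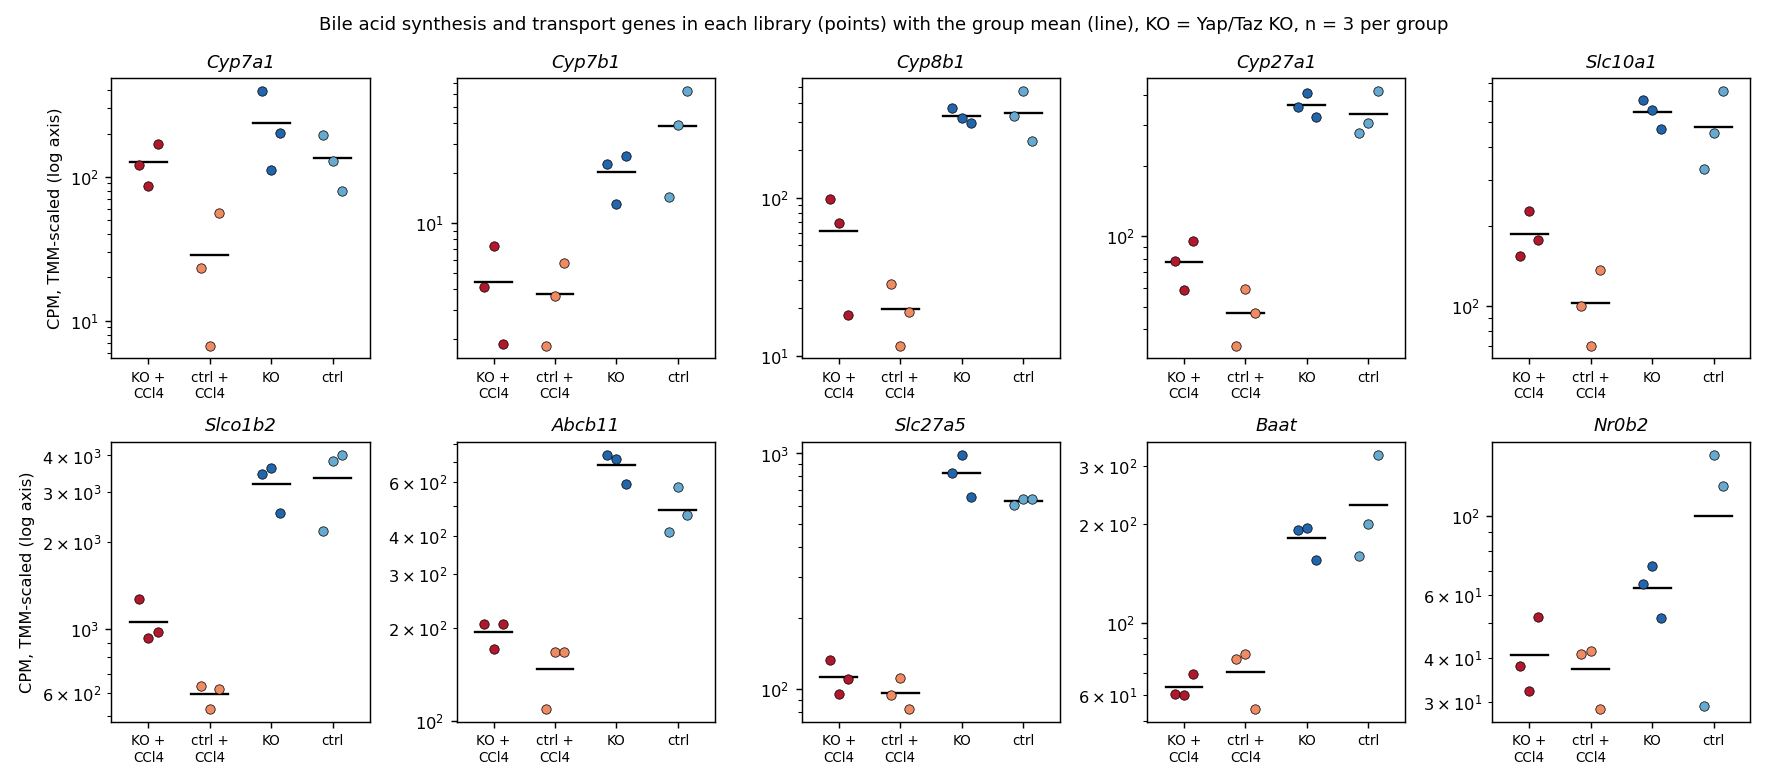
TMM-scaled CPM (log axis) of the 10 genes in each of the 12 libraries (points), with the mean of each group of 3 (line), KO standing for Yap/Taz KO. Both injured group means lie below both uninjured group means in all 10 panels, and the ctrl + CCl4 mean is the lowest of the 4 in 9 of them. These orders were counted for the 10 genes alone.

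The deepest falls among the hydroxylases were those of Cyp8b1, the sterol hydroxylase that steers synthesis toward cholic acid and so sets how hydrophobic the pool is. Cyp8b1 was 98.5, 68.9 and 18.2 CPM in Yap/Taz KO + CCl4 libraries, against 369, 321 and 296 CPM in Yap/Taz KO libraries, a 5.31-fold fall (log2 fold change -2.41, SE 0.47, adjusted p = 0.00276). In control hepatocytes it was 28.6, 11.6 and 19.01 CPM with CCl4, against 329.9, 473 and 228 CPM without, a 17.5-fold fall (log2 fold change -4.13, SE 0.52, adjusted p = 6.1e-05). Injured libraries lay below uninjured ones of the same genotype without overlap. Yap/Taz KO + CCl4 replicate 3 lay within the ctrl + CCl4 range, and the other Yap/Taz KO + CCl4 libraries lay above it.

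Cyp7a1, the rate-limiting enzyme of the classical route, had 122, 86.9 and 169 CPM in Yap/Taz KO + CCl4 libraries, against 394, 111 and 201 CPM in Yap/Taz KO libraries, and these groups overlapped (log2 fold change -0.90, SE 0.57, adjusted p = 0.310). The 95% interval of that log2 fold change ran from -2.12 to 0.31. Control hepatocytes had 23.4, 6.71 and 56.4 CPM with CCl4, against 197, 129.8 and 80.3 CPM without. All injured control libraries lay below all uninjured ones, a 4.71-fold fall (log2 fold change -2.24, SE 0.60, adjusted p = 0.0152). The spread within a group was wide: the highest ctrl + CCl4 value was 56.4 CPM and the lowest 6.71 CPM, and without ctrl + CCl4 replicate 1 the adjusted p was 0.0694. Leaving out 1 library at a time moved the log2 fold change between -3.17 and -1.74, the deepest fall being that without ctrl + CCl4 replicate 3.

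The alternative route starts with Cyp27a1, a mitochondrial enzyme that hydroxylates the sterol side chain. Its level was 78.6, 59.1 and 95.1 CPM in Yap/Taz KO + CCl4 libraries, against 358, 411 and 325 CPM in Yap/Taz KO libraries, a 4.70-fold fall (log2 fold change -2.23, SE 0.26, adjusted p = 5.4e-05). In control hepatocytes Cyp27a1 was 34.1, 59.5 and 47.04 CPM with CCl4, against 277, 305 and 417 CPM without, a 7.09-fold fall (log2 fold change -2.83, SE 0.27, adjusted p = 8.7e-06). Neither pair of groups overlapped, and the highest injured library of each genotype lay far below the lowest uninjured one.

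Cyp7b1, the oxysterol hydroxylase that acts after Cyp27a1, rested on few counts. The counts were 13, 23 and 6 in Yap/Taz KO + CCl4, 5, 12 and 18 in ctrl + CCl4, 42, 27 and 60 in Yap/Taz KO and 35, 78 and 88 in ctrl libraries. As CPM, Yap/Taz KO + CCl4 libraries had 4.10, 7.27 and 1.88, against 22.7, 13.03 and 25.6 in Yap/Taz KO libraries, and ctrl + CCl4 libraries had 1.83, 3.66 and 5.80, against 14.4, 39.3 and 62.5 in ctrl libraries. As for Cyp8b1, no injured library overlapped an uninjured one of its genotype. Cyp7b1 fell 4.59-fold in knockout hepatocytes (log2 fold change -2.20, SE 0.58, adjusted p = 0.0163) and 9.94-fold in control hepatocytes (log2 fold change -3.31, SE 0.59, adjusted p = 0.00104). The fall in knockout hepatocytes missed the threshold without Yap/Taz KO + CCl4 replicate 1, Yap/Taz KO + CCl4 replicate 3 or Yap/Taz KO replicate 3, at adjusted p = 0.0647, 0.0686 and 0.0557 in that order.

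Both conjugation genes fell in both genotypes. Slc27a5, the ligase that activates bile acids with coenzyme A, was 133, 95.4 and 109.9 CPM in Yap/Taz KO + CCl4 libraries, against 825, 990.2 and 654 CPM in Yap/Taz KO libraries. Control hepatocytes had 94.5, 112 and 82.2 CPM of Slc27a5 with CCl4, against 605, 644 and 639 CPM without. The injured libraries of both genotypes formed 1 narrow band far below the uninjured ones. The fall was 7.30-fold in knockout hepatocytes (log2 fold change -2.87, SE 0.23, adjusted p = 1.7e-06) and 6.55-fold in control hepatocytes (log2 fold change -2.71, SE 0.22, adjusted p = 3.6e-06). Baat, the enzyme that joins the activated acid to taurine or glycine, was 60.6, 60.03 and 69.7 CPM in Yap/Taz KO + CCl4 libraries, against 192, 195 and 156 CPM in Yap/Taz KO libraries. In control hepatocytes Baat was 77.3, 80.2 and 54.4 CPM with CCl4, against 160.0, 200.3 and 326 CPM without. These groups did not overlap in either genotype, and Baat fell 2.85-fold in knockout hepatocytes (log2 fold change -1.51, SE 0.26, adjusted p = 0.00117) and 3.23-fold in control hepatocytes (log2 fold change -1.69, SE 0.26, adjusted p = 0.000362).

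All 3 transporter genes fell in both genotypes, and no injured library overlapped an uninjured one of its genotype. Slc10a1 encodes NTCP, the sodium-coupled carrier that takes conjugated bile acids up from blood. It was 154, 230.0 and 177 CPM in Yap/Taz KO + CCl4 libraries, against 604, 554 and 471 CPM in Yap/Taz KO libraries, a 2.90-fold fall (log2 fold change -1.54, SE 0.29, adjusted p = 0.00191). Control hepatocytes had 99.6, 70.5 and 136 CPM of Slc10a1 with CCl4, against 332, 454 and 654 CPM without, a 4.69-fold fall (log2 fold change -2.23, SE 0.29, adjusted p = 9.2e-05). Slco1b2 encodes the organic anion transporter OATP1B2, which takes up unconjugated bile acids without sodium. It was 1274, 931 and 980.1 CPM in Yap/Taz KO + CCl4 libraries, against 3446, 3629.6 and 2523 CPM in Yap/Taz KO libraries, a 3.01-fold fall (log2 fold change -1.59, SE 0.25, adjusted p = 0.000581). Control hepatocytes had 638, 529.9 and 620.2 CPM of Slco1b2 with CCl4, against 2188, 3835 and 4032 CPM without, a 5.62-fold fall (log2 fold change -2.49, SE 0.26, adjusted p = 1.5e-05). Abcb11 encodes BSEP, the pump that exports bile salts across the canalicular membrane. It was 206, 172 and 206 CPM in Yap/Taz KO + CCl4 libraries, against 739, 712 and 592 CPM in Yap/Taz KO libraries, a 3.49-fold fall (log2 fold change -1.81, SE 0.22, adjusted p = 9.2e-05). Control hepatocytes had 109, 168 and 167 CPM of Abcb11 with CCl4, against 413, 579.7 and 469 CPM without, a 3.29-fold fall (log2 fold change -1.72, SE 0.22, adjusted p = 8.3e-05).

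Nr0b2, the repressor SHP that FXR induces, was 37.9, 32.2 and 52.1 CPM in Yap/Taz KO + CCl4 libraries, against 64.4, 72.4 and 51.5 CPM in Yap/Taz KO libraries, with overlap and no call (log2 fold change -0.62, SE 0.42, adjusted p = 0.348). In control hepatocytes it was 41.02, 41.8 and 28.7 CPM with CCl4, against 29.2, 149 and 122 CPM without, the smallest fall of the 10 there. The groups overlapped, as ctrl replicate 1 lay among the injured libraries and the other ctrl libraries far above them. The fall was 2.67-fold (log2 fold change -1.42, SE 0.43, adjusted p = 0.0261), and larger without ctrl replicate 1 (log2 fold change -1.86, adjusted p = 0.000109). It missed the threshold without any 1 of the other ctrl or ctrl + CCl4 libraries, at adjusted p from 0.0615 to 0.131, with library totals in place of TMM, at 0.0731, and in the fit of the 6 libraries compared, at 0.0735.

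**Figure D2:**
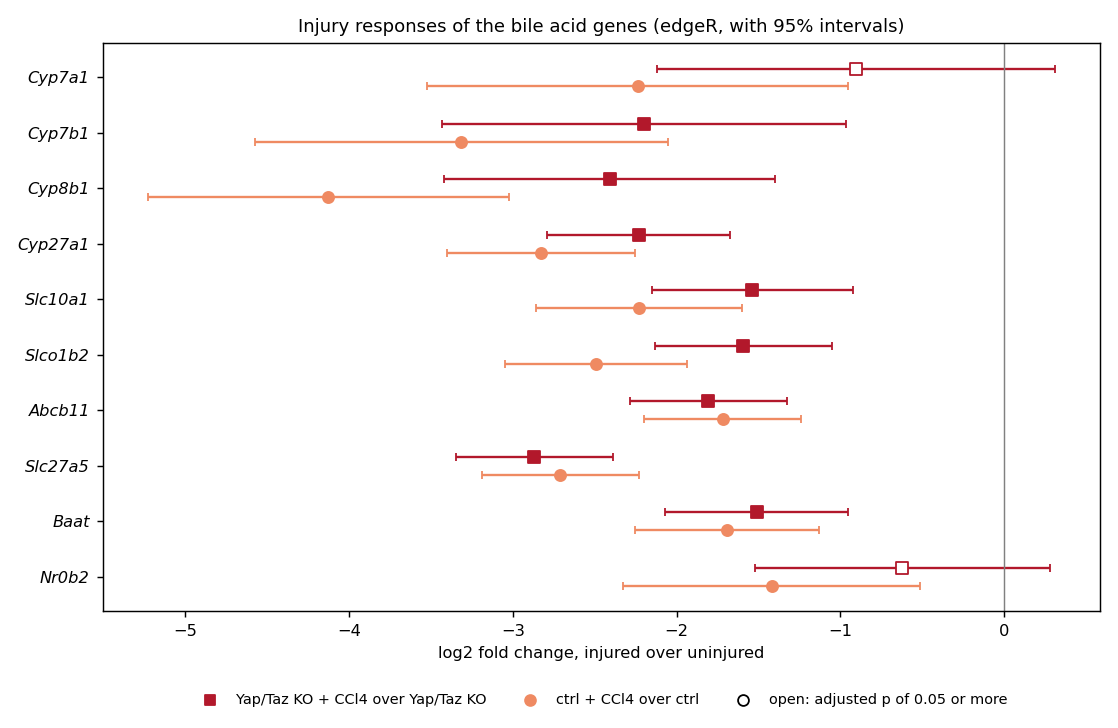
Log2 fold changes of the 10 genes after CCl4 (injured over uninjured) with 95% intervals, in knockout and in control hepatocytes, from 1 edgeR fit of all 12 libraries. All estimates lie below 0, and the intervals of Cyp7a1 and Nr0b2 in knockout hepatocytes cross it. Of all 10780 genes tested, 5204 estimates lie below 0 in knockout and 5208 in control hepatocytes.

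Markers of hepatocyte zones and of other cells moved with the injury. Hepatocyte markers as a whole summed to 0.659 of the uninjured mean in knockout and 0.578 in control hepatocytes after CCl4, with no overlap, and 2 of 8 fell in knockout and 5 of 8 in control hepatocytes. Pericentral markers, genes of the zone where CCl4 is activated, summed to 600.4 to 896 CPM in Yap/Taz KO + CCl4, 299 to 633 CPM in ctrl + CCl4, 5681 to 6315 CPM in Yap/Taz KO and 3038 to 7711 CPM in ctrl libraries, and 6 of 8 fell in each genotype. Periportal markers, genes of the zone around the portal vein, summed to 3469.5 to 6667 CPM in Yap/Taz KO + CCl4, 2035 to 3247 CPM in ctrl + CCl4, 9093 to 13492 CPM in Yap/Taz KO and 7349.9 to 13878 CPM in ctrl libraries, and 6 of 8 fell in knockout and 8 of 8 in control hepatocytes. Macrophage and Kupffer cell markers summed to 1797 to 2747 CPM in Yap/Taz KO + CCl4, 2305 to 4009 CPM in ctrl + CCl4, 217 to 1004 CPM in Yap/Taz KO and 441 to 2426 CPM in ctrl libraries, and 4 of 10 rose in knockout and 3 of 10 in control hepatocytes. No marker of these 4 lists was at 0 in any group. Cholangiocyte markers summed to 98.3 to 226 CPM in Yap/Taz KO + CCl4, 388 to 463 CPM in ctrl + CCl4, 46.6 to 86.02 CPM in Yap/Taz KO and 44.1 to 77.7 CPM in ctrl libraries, where Cftr was at 0 in all groups but ctrl + CCl4 and Tspan8 in ctrl + CCl4 and Yap/Taz KO. Of the 8 listed, 3 were tested and 1 rose in each genotype. The injured mean of the sum was 2.62 times the uninjured mean in knockout and 7.08 times in control hepatocytes. The median log2 fold change of the 3 was 0.33 and 0.94 in that order, so that the sums rest on few genes. Stellate cell markers summed to 1169 to 1375 CPM in Yap/Taz KO + CCl4, 748 to 1547 CPM in ctrl + CCl4, 284 to 706 CPM in Yap/Taz KO and 293 to 1005 CPM in ctrl libraries, and 3 of 8 rose in each genotype. Monocyte and neutrophil markers summed to 143 to 212 CPM in Yap/Taz KO + CCl4, 156 to 259 CPM in ctrl + CCl4, 23.6 to 54.5 CPM in Yap/Taz KO and 29.2 to 164 CPM in ctrl libraries, and 5 of 6 rose in knockout and 2 of 6 in control hepatocytes. The injured mean of that sum was 3.99 times the uninjured mean in knockout hepatocytes, with no overlap, and 2.66 times in control hepatocytes, with overlap, and Csf3r was at 0 in Yap/Taz KO libraries. Erythroid markers summed to 72.7 to 94.7 CPM in Yap/Taz KO + CCl4, 31.6 to 119 CPM in ctrl + CCl4, 19.8 to 55.8 CPM in Yap/Taz KO and 19.6 to 1583 CPM in ctrl libraries, and 0 of 4 fell in knockout and 2 of 4 in control hepatocytes. Sinusoidal endothelial markers lay between 315 and 1616 CPM over all 12 libraries with no marker past the test, and lymphocyte markers summed to at most 14.6 CPM in any library. The part of these shifts in the falls of the bile acid genes was not tested. Without ctrl replicate 1, the library with the most erythroid and macrophage RNA among ctrl libraries, 8 of the 10 genes fell in knockout and all 10 in control hepatocytes. The knockout response does not contain ctrl replicate 1. Its count could change only through what the fit shares over all libraries, and is no check on other cells.

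**Figure D3:**
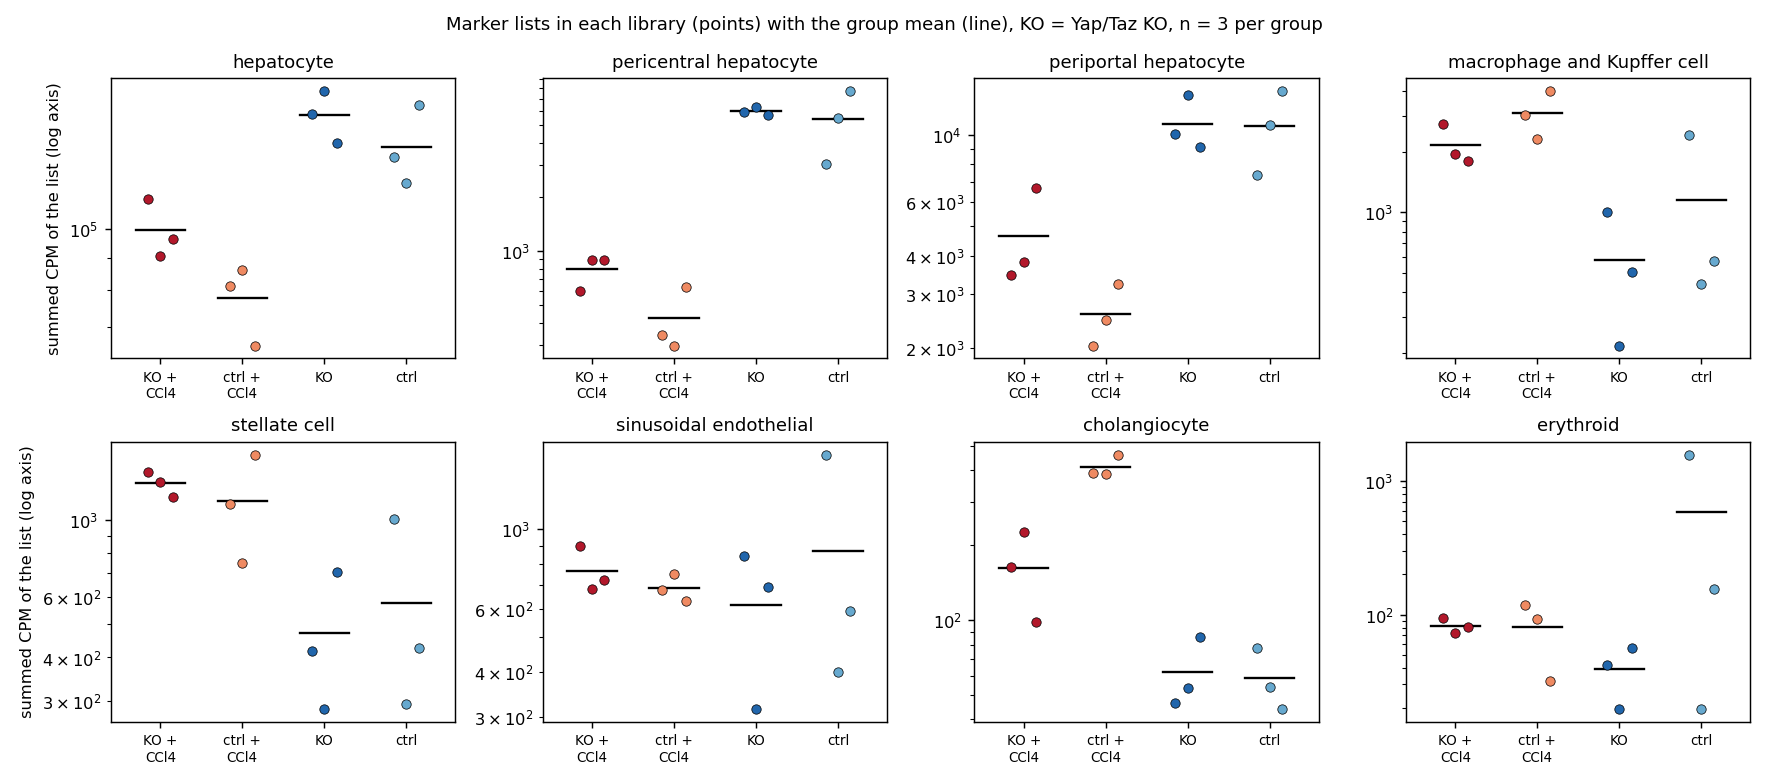
Summed CPM (log axis) of the marker lists in each of the 12 libraries (points), with the mean of each group of 3 (line), KO standing for Yap/Taz KO. Pericentral and periportal sums lie lower in all injured than in all uninjured libraries, and ctrl replicate 1 is the ctrl library with the highest erythroid sum, 1583 CPM.

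Between injured hepatocytes of the 2 genotypes, no bile acid gene passed the test, as no gene of the whole table did (0% of 10780 in edgeR). For 9 of the 10 genes the estimate was higher in Yap/Taz KO + CCl4 than in ctrl + CCl4 hepatocytes, where 49.1% of all genes were. The median log2 fold change of the 10 was 0.56, where the median of all genes was -0.01. At an unadjusted p under 0.05, 5 of the 10 were higher in Yap/Taz KO + CCl4 hepatocytes, where 4.07% of all genes were, and 613 genes passed that mark in either direction. DESeq2 gave an adjusted p to 5763 of the 10780 genes here and called 17, 0.226% of the 5763 being higher. It called 0 of the 10, where a gene with no adjusted p counts as not called. The libraries did not overlap, with Yap/Taz KO + CCl4 higher, for 4 of the 10 genes, where 8.50% of all genes did so. Scaling by library totals in place of TMM lowered the median log2 fold change of all genes by 0.14 in this comparison.

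Cyp7a1 had the largest estimate. As given above, Yap/Taz KO + CCl4 libraries held 122, 86.9 and 169 CPM, all above the ctrl + CCl4 libraries with 23.4, 6.71 and 56.4 CPM. The estimate was a 4.37-fold higher level (log2 fold change 2.13, 95% interval 0.85 to 3.41, unadjusted p = 0.00299, adjusted p = 0.729). Leaving out 1 library at a time moved it between 1.63 and 3.07, and no such fit passed the threshold. DESeq2 gave an adjusted p of 0.283. With no filter on low counts edgeR gave 1e-10, in a fit that put an infinite number of prior degrees of freedom, against 6.75 with the filter, on a spread fitted over all genes, so that a gene's own spread had no weight. Cyp8b1 averaged 61.9 ± 40.6 CPM in Yap/Taz KO + CCl4 and 19.7 ± 8.51 CPM in ctrl + CCl4 libraries (SD, n = 3 each), with overlap through Yap/Taz KO + CCl4 replicate 3. Its log2 fold change was 1.65 (95% interval 0.63 to 2.68, adjusted p = 0.759), and the adjusted p in that fit with no filter was 3.1e-06.

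The uptake transporters did not overlap between the injured groups. Slc10a1 averaged 187 ± 38.8 CPM in Yap/Taz KO + CCl4 and 102 ± 32.98 CPM in ctrl + CCl4 libraries (log2 fold change 0.87, 95% interval 0.27 to 1.48, adjusted p = 0.798). Slco1b2 averaged 1062 ± 186 CPM in Yap/Taz KO + CCl4 and 596 ± 57.8 CPM in ctrl + CCl4 libraries (log2 fold change 0.83, 95% interval 0.30 to 1.36, adjusted p = 0.759). Abcb11 was the fourth gene without overlap, with 195 ± 19.8 CPM in Yap/Taz KO + CCl4 and 148 ± 33.6 CPM in ctrl + CCl4 libraries (log2 fold change 0.40, 95% interval -0.07 to 0.86, adjusted p = 0.976). Cyp27a1, with 77.6 ± 18.1 CPM in Yap/Taz KO + CCl4 and 46.9 ± 12.7 CPM in ctrl + CCl4 libraries, overlapped by a narrow margin (log2 fold change 0.73, 95% interval 0.18 to 1.27, adjusted p = 0.803).

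For the conjugation genes and the repressor the intervals lay around 0. The log2 fold change of Slc27a5 was 0.23 (95% interval -0.22 to 0.68), that of Baat -0.15 (-0.71 to 0.40) and that of Nr0b2 0.13 (-0.77 to 1.03). Cyp7b1, with its few counts, gave 0.21 (-1.12 to 1.55). Their adjusted p-values were 0.989, 0.992, 0.992 and 0.992 in that order. These intervals include changes in either direction, so that the values do not show equal levels.

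Marker sums also differed between the injured groups. Hepatocyte markers averaged 1.28 times, periportal markers 1.80 times and pericentral markers 1.87 times the ctrl + CCl4 mean in Yap/Taz KO + CCl4 libraries, without overlap for the hepatocyte and periportal lists. Cholangiocyte markers, of which 3 were tested, averaged 0.393 times the ctrl + CCl4 mean, without overlap, and macrophage markers 0.694 times, with overlap. No marker of these lists passed the test in this comparison. Their part in the higher estimates of bile acid genes was not tested.

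In uninjured hepatocytes, 0 of the 10 genes passed the test between Yap/Taz KO and ctrl, as did 0% of all 10780 genes in edgeR. DESeq2 called 43 genes over the whole table and 0 of the 10, and 1020 genes had an unadjusted p under 0.05. The estimates were split, 5 above and 5 below 0, with a median log2 fold change of 0.03, where that of all genes was -0.03. Of all genes, 47.0% were above 0. Libraries did not overlap for 2 of the 10 genes, where 10.7% of all genes did not overlap. These were Abcb11, with 739, 712 and 592 CPM in Yap/Taz KO against 413, 579.7 and 469 CPM in ctrl libraries, and Slc27a5, with 825, 990.2 and 654 CPM in Yap/Taz KO against 605, 644 and 639 CPM in ctrl libraries. The log2 fold change was 0.48 for Abcb11 (95% interval 0.02 to 0.95, unadjusted p = 0.0428, adjusted p = 0.514) and 0.39 for Slc27a5 (95% interval -0.06 to 0.83, adjusted p = 0.579). Cyp7a1 averaged 236 ± 144 CPM in Yap/Taz KO and 136 ± 58.4 CPM in ctrl libraries, and Nr0b2 62.8 ± 10.5 CPM in Yap/Taz KO and 99.9 ± 62.7 CPM in ctrl libraries, with overlap in both. Their log2 fold changes were 0.79 (95% interval -0.43 to 2.01) and -0.66 (-1.56 to 0.23), and 1.16 and -1.11 without ctrl replicate 1. That library had the lowest value of its group for 8 of the 10 genes, and so had Yap/Taz KO replicate 3 in its own group. Among injured libraries, Yap/Taz KO + CCl4 replicate 2 was the lowest of its group for 7 of the 10. The lowest library was sought for the 10 genes alone, so that a trait of these genes and a shift of the whole library cannot be told apart. Of the remaining genes, Cyp7b1 gave -0.90 (95% interval -2.02 to 0.22) and Baat -0.34 (-0.88 to 0.21), and Cyp8b1, Cyp27a1, Slc10a1 and Slco1b2 lay between -0.07 and 0.18.

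**Figure D4:**
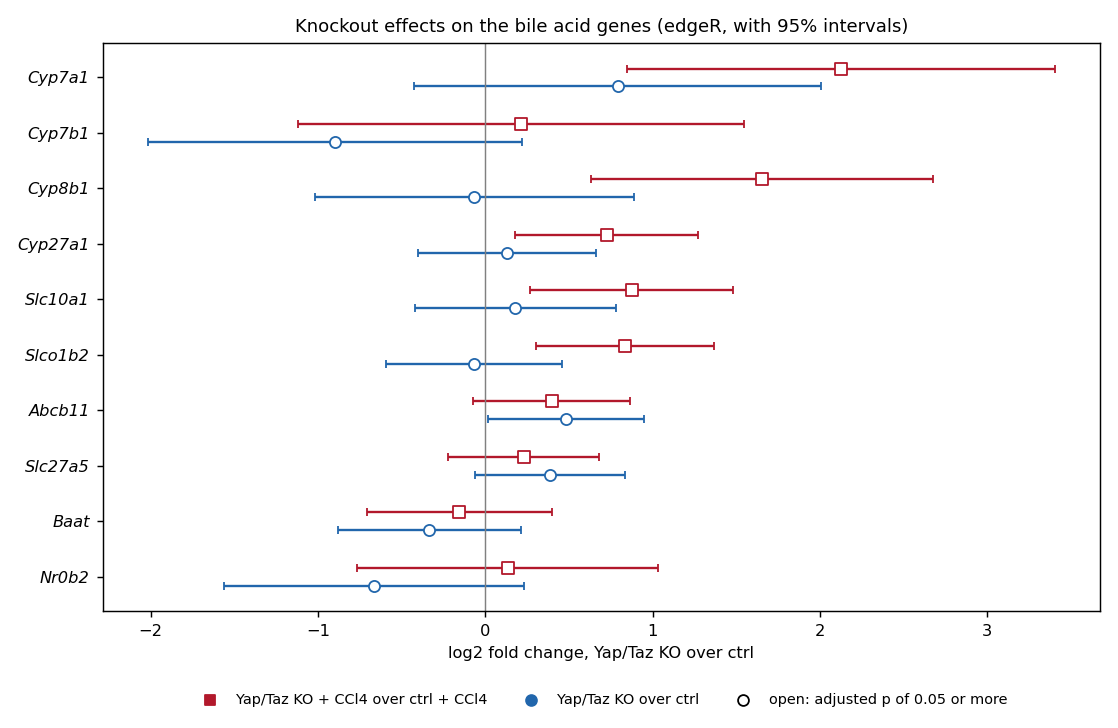
Log2 fold changes of the 10 genes between knockout and control hepatocytes with 95% intervals, in injured and in uninjured hepatocytes, from 1 edgeR fit of all 12 libraries. In injured hepatocytes the intervals of Cyp7a1, Cyp8b1, Cyp27a1, Slc10a1 and Slco1b2 lie above 0, in uninjured hepatocytes that of Abcb11, and no adjusted p passes 0.05.

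Whether the injury response itself differed by genotype was tested as the interaction, the log2 fold change after CCl4 in knockout minus that in control hepatocytes. None of the 10 genes passed, nor did any of the 10780 genes in edgeR (0%), where 874 genes had an unadjusted p under 0.05. DESeq2 called 12 genes over the whole table, 0.0835% of those it tested with a positive value, and 0 of the 10. The interaction was positive, meaning a smaller fall in knockout hepatocytes, for 8 of the 10 genes, where 53.9% of all genes were positive. An unadjusted p under 0.05 with a positive value was found for 2 of the 10, where 4.54% of all genes had one. These were Cyp8b1 (interaction 1.72, 95% interval 0.33 to 3.11, unadjusted p = 0.0190, adjusted p = 0.589) and Slco1b2 (interaction 0.90, 95% interval 0.15 to 1.65, unadjusted p = 0.0213, adjusted p = 0.589). In the fit with no filter on low counts, where a gene's own spread has no weight, Cyp8b1 passed the threshold at adjusted p = 0.00372. For Cyp7a1 the interaction was 1.33 (95% interval -0.40 to 3.07, adjusted p = 0.669), and for Nr0b2 0.80 (-0.47 to 2.07, adjusted p = 0.740). Leaving out 1 library at a time, the Cyp7a1 interaction ranged from 0.84 (without ctrl + CCl4 replicate 2) to 2.28 (without ctrl + CCl4 replicate 3). That both genes passed in control and not in knockout hepatocytes is therefore no shown difference between genotypes. The narrowest intervals were those of Slc27a5, at -0.16 (-0.79 to 0.48), and Abcb11, at -0.09 (-0.75 to 0.57). The interaction and both knockout effects share their libraries with the injury responses, so that these estimates are not independent of each other.

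Other genes of bile acid metabolism were read from 4 lists of further synthesis enzymes, transporters, detoxification genes and regulators. Of 55 genes listed, 48 were tested, and 22 fell and 0 rose in knockout hepatocytes, and 22 fell and 0 rose in control hepatocytes. Of all genes tested, 8.35% fell in knockout and 12% in control hepatocytes, the shares beside which the counts of each list below stand. The median log2 fold change of the 48 was -0.91 in knockout and -0.77 in control hepatocytes. No gene of the lists passed in either knockout effect or in the interaction in edgeR, where 6, 10 and 9 of the 48 had an unadjusted p under 0.05 in the injured knockout effect, the uninjured knockout effect and the interaction. Of all genes, 5.69%, 9.46% and 8.11% did so. DESeq2 called 1, 0 and 0 of the 48 in the same order, a gene to which it gave no adjusted p counting as not called.

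Of the other synthesis enzymes, 5 of 14 fell in knockout and 8 of 14 in control hepatocytes. Akr1d1, the reductase that sets the ring junction of bile acids, was 67.9, 76.1 and 107 CPM in Yap/Taz KO + CCl4 libraries, against 123, 176 and 115 CPM in Yap/Taz KO libraries (log2 fold change -0.72, adjusted p = 0.0681). In control hepatocytes it was 23.4, 33.9 and 42.2 CPM with CCl4, against 111, 109 and 136 CPM without, and fell by 1.83 on the log2 scale (SE 0.27, adjusted p = 0.000242). The Yap/Taz KO + CCl4 libraries lay above all ctrl + CCl4 libraries (log2 fold change 1.33, adjusted p = 0.352 in edgeR). Akr1d1 was the 1 related gene that DESeq2 called between injured genotypes, at adjusted p = 0.00486. The naming rule picked Akr1d1 for its fall in control hepatocytes, while that DESeq2 call was added after its values were seen. Fdx1, the ferredoxin that passes electrons to Cyp27a1, fell in both genotypes, with log2 fold changes of -0.94 (adjusted p = 0.00911) in knockout and -1.61 (adjusted p = 0.000159) in control hepatocytes. The knockout call of Fdx1 was lost with library totals (adjusted p = 0.106) and without Yap/Taz KO + CCl4 replicate 1 (adjusted p = 0.0507). Cyp2c70, which makes the muricholic acids of mice, fell in both, with -1.23 (adjusted p = 0.00185) in knockout and -1.42 (adjusted p = 0.000497) in control hepatocytes. Abcd3, a peroxisomal transporter of bile acid intermediates, fell in both, with -1.06 (adjusted p = 0.00306) in knockout and -1.23 (adjusted p = 0.000803) in control hepatocytes.

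Among the other transporters, 7 of 13 fell in knockout and 4 of 13 in control hepatocytes. Slco2b1, an organic anion uptake transporter, had log2 fold changes of -1.501 (adjusted p = 0.000339) in knockout and -1.53 (adjusted p = 0.000213) in control hepatocytes. Abcg8, a subunit of the pump that secretes cholesterol into bile, had -1.52 (adjusted p = 0.00290) in knockout and -1.70 (adjusted p = 0.00109) in control hepatocytes. Abcc3, which exports bile acids back into blood, had -1.80 (adjusted p = 0.00182) in knockout and -1.67 (adjusted p = 0.00237) in control hepatocytes. All 3 fell in both genotypes, in the same direction as Slc10a1, Slco1b2 and Abcb11.

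Of 5 detoxification genes, 1 fell in knockout and 3 in control hepatocytes. Sult2a8, a bile acid sulfotransferase of mouse liver, fell in both, with log2 fold changes of -3.23 (adjusted p = 0.000376) in knockout and -4.38 (adjusted p = 3.6e-05) in control hepatocytes. Cyp3a11, a hydroxylase of drugs and bile acids, had log2 fold changes of 0.60 (adjusted p = 0.414) in knockout and -1.89 (adjusted p = 0.0101) in control hepatocytes, and passed in control hepatocytes. Sult2a1, a further sulfotransferase, had -2.81 (adjusted p = 0.119) in knockout and -3.73 (adjusted p = 0.0447) in control hepatocytes, and likewise passed in control hepatocytes. Its control groups overlapped, with 47.6, 0.915 and 18.0 CPM with CCl4, against 345, 503 and 22.7 CPM without. Yap/Taz KO + CCl4 libraries had 123, 75.5 and 0.628 CPM of Sult2a1, against 520, 586 and 296 CPM in Yap/Taz KO libraries. The cause of this wide spread between replicates was not tested. The Sult2a1 call was lost in 13 and the Cyp3a11 call in 2 of 19 alternative fits, Cyp3a11 at adjusted p = 0.0509 without ctrl + CCl4 replicate 2 and 0.0505 without ctrl replicate 3. In control hepatocytes the log2 fold change of Sult2a8 was -4.98 without ctrl + CCl4 replicate 1 and -3.67 without ctrl replicate 3, and that of Sult2a1 -4.93, -3.14 and -3.07 without ctrl + CCl4 replicate 1, ctrl + CCl4 replicate 2 and ctrl replicate 2. Sult2a and Cyp3a genes have near-identical neighbours, so that counting could split their reads and their values are uncertain.

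Of 16 regulators, 9 fell in knockout and 7 in control hepatocytes. Nr1h4, the bile acid receptor FXR, was 29.4, 48.97 and 42.4 CPM in Yap/Taz KO + CCl4 libraries, against 60.1, 96.5 and 83.5 CPM in Yap/Taz KO libraries (log2 fold change -0.99, SE 0.29, adjusted p = 0.0307). In control hepatocytes Nr1h4 was 26.00, 27.8 and 25.8 CPM with CCl4, against 48.9, 67.4 and 109 CPM without (log2 fold change -1.49, SE 0.30, adjusted p = 0.00259). Neither pair of groups overlapped. Nr5a2, the receptor LRH-1 that drives Cyp7a1 and Cyp8b1 and is bound by SHP, was 56.8, 60.98 and 48.99 CPM in Yap/Taz KO + CCl4 libraries, against 127, 155 and 146 CPM in Yap/Taz KO libraries (log2 fold change -1.36, SE 0.26, adjusted p = 0.00214). In control hepatocytes Nr5a2 was 42.9, 77.8 and 54.8 CPM with CCl4, against 81.03, 137 and 89.6 CPM without (log2 fold change -0.81, SE 0.26, adjusted p = 0.0344). Both receptors fell in both genotypes, while the knockout call of Nr1h4 was lost in 5 and the control call of Nr5a2 in 6 of 19 alternative fits.

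Hnf4a, a master regulator of hepatocyte genes, was 227, 215 and 288 CPM in Yap/Taz KO + CCl4 libraries, against 379, 517 and 305 CPM in Yap/Taz KO libraries (log2 fold change -0.72, SE 0.24, adjusted p = 0.0506), which missed the threshold and passed it in 5 of 19 alternative fits. In control hepatocytes Hnf4a was 207, 182 and 175 CPM with CCl4, against 248, 309 and 398 CPM without (log2 fold change -0.76, SE 0.24, adjusted p = 0.0332), a call lost in 6 of 19 alternative fits. Klb, the coreceptor through which intestinal FGF15 signals to hepatocytes, fell in knockout hepatocytes, with 8.52, 10.1 and 15.4 CPM with CCl4, against 29.8, 38.1 and 32.8 CPM without (log2 fold change -1.56, SE 0.34, adjusted p = 0.00490). In control hepatocytes Klb was 10.99, 13.7 and 15.8 CPM with CCl4, against 23.9, 30.2 and 13.5 CPM without, with overlap (log2 fold change -0.75, SE 0.34, adjusted p = 0.131). Fgfr4, the receptor that pairs with Klb, gave log2 fold changes of -0.62 (adjusted p = 0.284) in knockout and -0.48 (adjusted p = 0.392) in control hepatocytes, with overlap in both. Cebpa, a differentiation factor of hepatocytes, fell in both genotypes, with -1.46 (adjusted p = 0.00106) in knockout and -1.40 (adjusted p = 0.00111) in control hepatocytes. Ppargc1a, a coactivator of fasting genes, fell in both, with -1.72 (adjusted p = 0.00973) in knockout and -1.92 (adjusted p = 0.00476) in control hepatocytes. Ppara, the receptor of fatty acids, had -1.44 (adjusted p = 0.00241) in knockout and -0.56 (adjusted p = 0.167) in control hepatocytes, and passed in knockout hepatocytes. A call in 1 genotype and not in the other is no shown difference between genotypes.

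**Figure D5:**
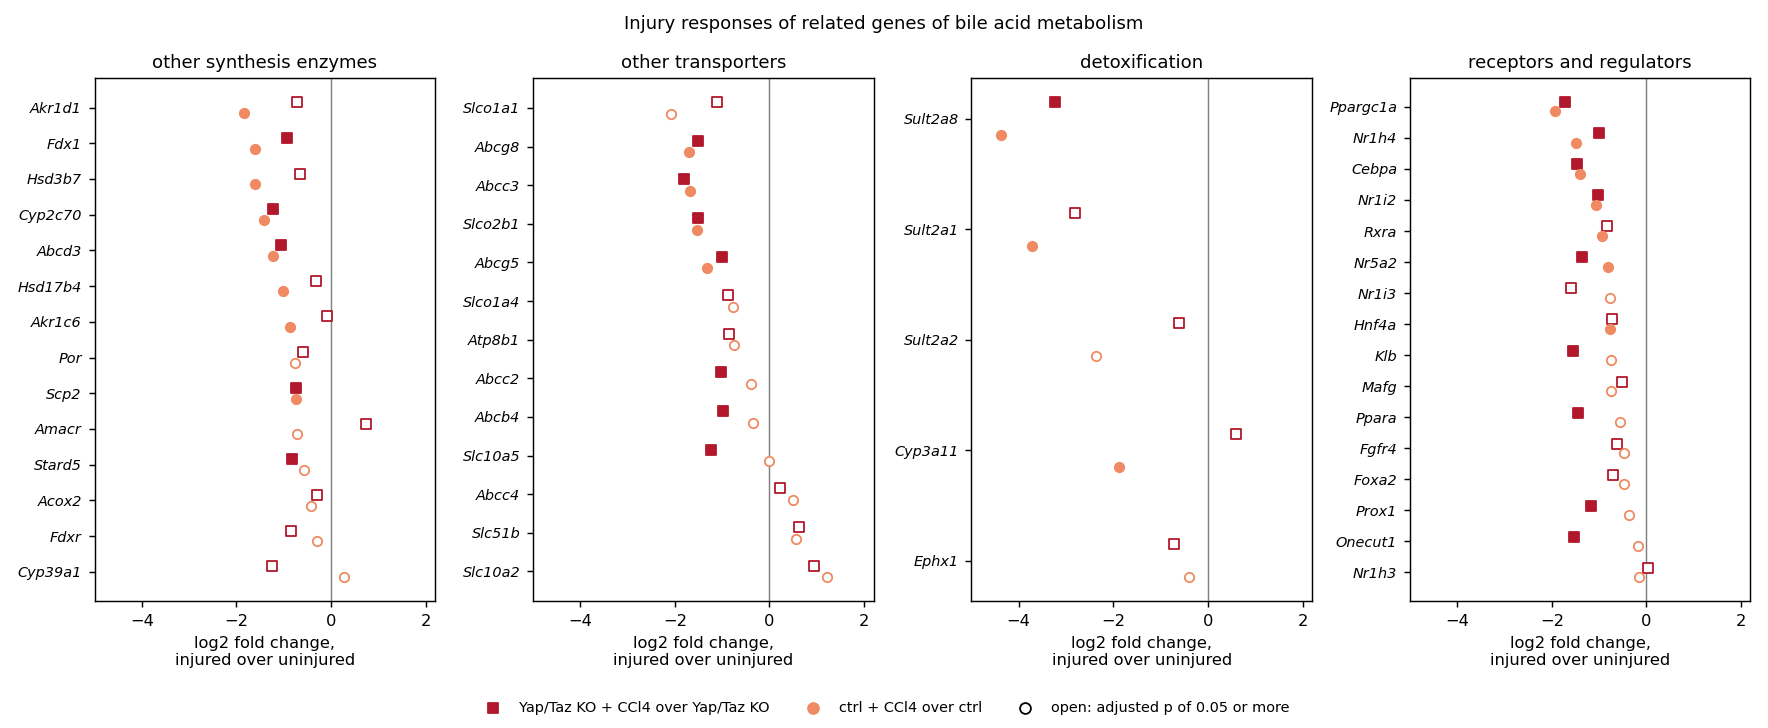
Log2 fold changes after CCl4 (injured over uninjured) of the tested genes of the 4 related lists, in knockout and in control hepatocytes, from 1 edgeR fit of all 12 libraries. Most estimates lie below 0, 42 of 48 in knockout and 44 of 48 in control hepatocytes. Of all 10780 genes tested, 5204 lie below 0 in knockout and 5208 in control hepatocytes.

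As a description of pattern over the 12 libraries, the genes nearest to Cyp7a1, Slc27a5 and Nr0b2 were found by the root mean square difference of centred log2 CPM. Nearest to Cyp7a1 were Nxpe2, Isoc2b and Apol7a, at 0.725, 0.762 and 0.795, where the median over all genes was 1.56. Nearest to Slc27a5 were Gabarapl1, Pigr and Lipc, at 0.295, 0.297 and 0.320, where the median was 1.52. Nearest to Nr0b2 were Ugt2b5, Spry4 and Akap1, at 0.251, 0.295 and 0.314, where the median was 0.893. No gene followed Cyp7a1 as closely as those of Slc27a5 or Nr0b2 followed theirs. None of the other listed bile acid genes was among these 9. So few neighbours were taken from all genes tested that this says nothing of how the listed genes relate.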

How the data were processed

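Each library was made from 500000 sorted hepatocytes with the QuantSeq 3′ FWD kit, per the labels' protocols. The authors deposited raw counts of reads per gene symbol, whole numbers with no scaling between libraries. The submitters' processing notes name FastQC, cutadapt, STAR 2.6.1d, mm10 and GRCm38 and give no roles. Which counter, annotation and strand setting were used, and whether molecular identifiers were, was not given in the sources used here, so that genes with near-identical copies are uncertain. Counts of amplified tags without identifiers are not independent molecules.

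The labels gave each library its group and number. They do not state separate animals, so that a p-value here reflects the spread of these samples alone, which may be technical. Replicates differed by more than sampling noise (chi-square over its degrees of freedom 8.56 to 26.6), and none was merged. The 10 genes, the related lists and the marker lists were chosen with earlier results of these data known. Of the 55 related genes 54 were in the table. A listed regulator and a motif are not reported here. Stard1 of the enzyme list and Rhbg of the pericentral list are not analysed here.

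Tests used edgeR 4.0.16 (R 4.3.3) with filterByExpr (minimum count 10, minimum total 15), TMM factors (0.776 to 1.312), 1 coefficient per group over all 12 libraries, the quasi-likelihood F test and Benjamini-Hochberg adjustment over 10780 genes at 0.05. Adjusted p-values in the text are from this fit unless another tool is named, and intervals are 95% intervals of its coefficients. The log2 CPM of the pattern search used a prior count of 2. The alternatives were DESeq2 1.42.0, limma-voom with quality weights (limma 3.58.1), RLE factors, scaling by library totals, dropping the filter on low counts, a replicate block, fits of the 6 libraries compared, and leaving out each library. Against TMM, library totals raised the median log2 fold change by 0.37 in both injury responses and lowered it by 0.14 in both knockout effects, and changes are given relative to the bulk of genes. On simulated counts for the control injury response (10501 genes), 71% of 100 genes changed by 1.5 and 99% of 100 genes changed by 3 on the log2 scale were recovered, with 12 false calls. The changed genes were drawn from genes above a floor of mean CPM, so that these rates do not cover genes of low counts such as Cyp7b1. Far fewer genes were changed there, in equal numbers up and down, than the 1137 higher and 1290 lower genes called in the control response. The rates and the false calls may therefore differ in these data.

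Named were the 10 genes, Yap1, Wwtr1, Nr1h4, Hnf4a, Nr5a2, Fgfr4 and Klb, and, in each related list and injury response, the 3 called genes with the smallest adjusted p. Positions are from GENCODE M21, and upstream windows from RefSeq (GRCm38.p6). Figures were drawn with matplotlib 3.10.9.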

Additional observations from a re-analysis of the deposited data

How the results depend on the processing

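Leaving out 1 library at a time, 7 to 8 of the 10 genes fell in knockout and 8 to 10 in control hepatocytes. The call of Cyp7a1 in control hepatocytes was lost without ctrl + CCl4 replicate 1, and the other lost calls were those of Nr0b2 and Cyp7b1 given above. Among the alternative values of single genes, 1439 kept their direction and their side of the threshold, 45 lost a call, 10 gained one and 15 changed sign. Over all genes, the fits without 1 library gave 625 to 1284 higher and 516 to 1047 lower genes in knockout hepatocytes after injury, and 763 to 1707 higher and 903 to 1466 lower in control hepatocytes. The shifts over 1.5-fold came without Yap/Taz KO + CCl4 replicates 1 or 2 or Yap/Taz KO replicate 2 in knockout hepatocytes, and without ctrl replicate 1 in control hepatocytes. In the knockout effects these fits gave 0 to 1 gene in each direction without injury (without Yap/Taz KO replicate 3, ctrl replicate 1 or ctrl replicate 2), and 0 to 3 higher and 0 to 1 lower with injury (without Yap/Taz KO + CCl4 replicates 1 or 3, Yap/Taz KO replicates 1 or 2, or ctrl replicate 1).

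Library totals gave 1814 higher and 406 lower genes after injury in knockout, and 1974 and 698 in control hepatocytes. No low-count filter gave 75 higher and 135 lower genes in the uninjured knockout effect, 87 and 22 in the injured one, and 100 positive and 15 negative interactions. Among these were 2 bile acid genes higher in the injured effect, Cyp7a1 and Cyp8b1, and 1 in the interaction, Cyp8b1, and Cyp7a1 fell in knockout hepatocytes at adjusted p = 0.0122. DESeq2 gave 23 and 20 genes in the uninjured effect, 13 and 4 in the injured one, and 9 positive and 3 negative interactions. In the injured effect, limma-voom gave 8 higher and 9 lower genes, and the fit of 6 libraries 2 and 3. In the fit with no filter edgeR's prior degrees of freedom were infinite, which leaves a gene's own spread no weight; the other causes were not tested.

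Direction changed only in values with no call. For the uninjured knockout effect, library totals gave -0.00695 for Cyp27a1, and the fits without 1 library ranged over -0.28 to 0.24 for Cyp8b1, -0.023 to 0.47 for Slc10a1, -0.29 to 0.094 for Slco1b2 and -0.53 to 0.013 for Baat. For the injured effect they ranged over -0.34 to 0.67 for Cyp7b1 and -0.077 to 0.28 for Nr0b2, and for the interaction over -0.26 to 0.020 for Abcb11 and -0.17 to 0.38 for Baat.

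With the replicate number as a block, 8 of the 10 genes fell in knockout and 10 in control hepatocytes, and over all genes 1101 rose and 994 fell in knockout and 1250 rose and 1344 fell in control hepatocytes. The numbers are not known to pair the samples, as the labels do not say so. Deviations of same-numbered libraries correlated between -0.15 and 0.32, above 0.1 in 7 of 18 pairs. Differently numbered libraries were not compared, so that these values cannot show pairing or its absence. Groups of 3 and low counts, as for Cyp7b1, limit which changes could be called.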
